A study of Mus musculus with 4 samples.

Results

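The genes described here are the solute carriers that activated mouse CD8+ T cells expressed, 158 of the 54532 genes in the count table. A gene was taken when it was annotated as protein coding, carried an Slc or Slco family name and had a mean level of at least 5 CPM (read counts scaled to the library total) over the 4 samples, and Slc7a5 and Slc2a1 were left out by name. Of 385 protein-coding Slc and Slco genes, 225 lay under that level, and 88 of these had no count in any sample. The members belong to 43 families on 20 chromosomes. Just inside the threshold stood Slc1a4 at a mean of 5.026 CPM, Slc37a2 at 5.28 and Slc31a2 at 5.52, and just outside it Slc25a24 at 4.999, Slc2a8 at 4.63 and Slc25a35 at 4.6. The members were thus chosen by their mean CPM, so their levels are given as a description with no test. The rule did not use the difference between the groups, but Slc1a4 and Slc9a7 reached the threshold only through the IFNα samples. The members Slc9a3r1, Slc4a1ap and Slc7a6os match by name only and are not carriers.

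Naive CD8+ T cells from the spleen of C57BL/6 mice had been isolated with magnetic beads and stimulated through CD3 and CD28 with antibodies for 48 h. The control group (2 samples) received no IFNα, and the IFNα group (2 samples) received 2000 U/ml. IFNα, a type I interferon, is known to induce antiviral genes. Whether the samples of a group came from separate mice or cultures is not stated, so p-values cover the spread of these samples alone, and that spread may be technical. In bulk RNA, fewer cells of a type and less RNA per cell cannot be told apart.

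Solute carriers are membrane proteins that move amino acids, sugars, lactate, nucleosides, ions, metals and vitamins across the plasma membrane, the membranes of organelles and the inner mitochondrial membrane. Some exchange a substrate for another, and others use a sodium or proton gradient. Stimulated T cells grow and divide, and amino acid and glucose uptake through carriers is known to rise in them. The family numbers follow sequence relatedness and roughly the substrate, and the members were sorted into classes on that basis.

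The samples held 16096121 to 17676062 counts, and 20667 to 21517 genes had a count. All 7 CD8 T cell markers were detected, with summed levels of 3194 to 3605 CPM in the controls and 3123 to 3189 CPM with IFNα. The 3 interferon response genes Isg15, Irf7 and Mx1 summed to 41.2 to 47.7 CPM in the controls and 1574 to 1591 CPM with IFNα. Of the other cell types, the 7 myeloid markers summed to 19.2 and 21.5 CPM in the controls and 7.89 and 9.11 CPM with IFNα. Lyz2 led at 16.5 and 14.4 CPM in the controls and 4.91 and 5.94 CPM with IFNα. Fcgr3, Spi1, Itgam and Cd14, each at most 2.3 CPM, were also lower in both IFNα samples. Csf1r and Adgre1, each at most 1.24 CPM, overlapped between the groups. The 6 B cell markers summed to 18.5 and 19.6 CPM in the controls and 11.7 and 12.6 CPM with IFNα, led by Cd79b, while Ms4a1 and Pax5 were at 0 in both IFNα samples. The part of these cells in the results below was not tested. CD4 T cell, dendritic, NK and erythroid lists (3, 5, 3 and 5 genes) each summed to at most 4.6 CPM, and Hba-a2 was at 0 in every sample. The controls were less alike than the IFNα samples. The median absolute log2 ratio between the samples of a group was 0.22 for the members in the controls and 0.08 with IFNα, against 0.26 and 0.08 over all tested genes with a mean of at least 5 CPM.

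The 2 most abundant members per length, Slc25a5 and Slc25a3, were mitochondrial carriers. Levels between genes are compared as CPM per kilobase of the gene length in the table. Slc25a5, the adenine nucleotide carrier that exchanges ADP for ATP, stood at 585 and 449 CPM per kilobase in the controls and 409 and 462 with IFNα. Slc25a3, the mitochondrial phosphate carrier, followed at 124, 105, 92 and 98.4 CPM per kilobase in control replicates 1 and 2 and IFNα replicates 1 and 2. Slc25a4, another adenine nucleotide carrier, stood at 106, 78.3, 68.9 and 76 CPM per kilobase in that order. For all these carriers control replicate 1 was the highest sample, and for Slc25a5 the groups overlapped.

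Among plasma membrane carriers Slc1a5, the neutral amino acid exchanger ASCT2 that takes up glutamine, had the highest level per kilobase, at 97.3 and 88.7 in the controls and 91.5 and 92.9 with IFNα. The groups overlapped. Slc25a3 lay above Slc1a5 in every sample, and Slc25a4 did so in control replicate 1 alone. Next came the scaffold protein gene Slc9a3r1 at a mean of 83.5 CPM per kilobase. A step below lay 7 members with means of 31.2 to 41.4. They were Slc50a1, a sugar carrier of the SWEET family, Slc35a4, of the nucleotide sugar carrier family, Slc3a2, the CD98 heavy chain that partners LAT1, Slc28a2, a concentrative nucleoside carrier, Slc16a1, the lactate carrier MCT1, Slc25a11, the mitochondrial oxoglutarate carrier, and Slc20a1, a phosphate carrier. Along the order of the 12 highest members the sample ranges of neighbours overlapped, except between Slc25a5 and Slc25a3 and between Slc25a4 and Slc50a1.

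**Figure D1:**
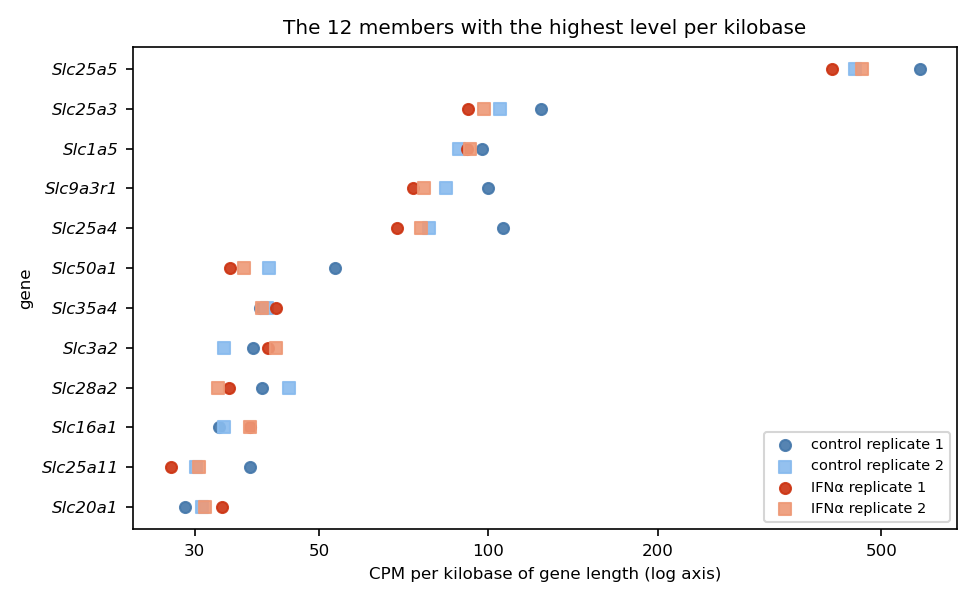
Levels of the 12 members with the highest mean CPM per kilobase of gene length (log axis), 1 point for each of the 4 samples. Slc25a5 stands apart at a mean of 476 CPM per kilobase, and for the short mitochondrial carriers control replicate 1 lies to the right of the other samples.

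With IFNα 3 members changed, and 146 of the 158 had a log2 fold change under 0.5 in size. Slco3a1, an organic anion carrier, and Slc25a22, a mitochondrial glutamate carrier, were higher, and Slc26a11, a carrier of sulfate and other anions, was lower. These calls are at an adjusted p under 0.05 in edgeR's quasi-likelihood test, adjusted by the Benjamini-Hochberg method over 14417 tested genes, to which all further fold changes, SEs and adjusted p-values refer. The 2 members called higher are 1.27% of the 158, all of them tested, against 1.43% of all tested genes and 1.84% of those that code for protein and reach 5 CPM. The 1 called lower is 0.633%, against 0.222% and 0.286%. With a log2 fold change above 1 in size also required, 2 members were higher and 0 lower, against 1.28% and 0.139% of all tested genes. At an unadjusted p under 0.05 there were 10 higher and 8 lower members in edgeR's test, together 11.4% of the members, against 5.72% and 5.55% of tested genes, together 11.3%. Slc1a4, a member only through its IFNα samples, is among the 10. DESeq2 called 2 members higher and 1 lower, or 1.27% and 0.633% of the members against 2.39% and 0.603% of all tested genes. By edgeR the share called higher lay near the background, and the share called lower rests on 1 gene.

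The summed level of all members was 9311 and 9513 CPM in the controls and 9441 and 9501 CPM with IFNα, so the groups overlapped. The median log2 fold change was 0.03 for the members, with the middle 50% between -0.17 and 0.17. It was -0.02 for all tested protein-coding genes at 5 CPM or more, with the middle 50% between -0.18 and 0.16. The 95% interval lay within a log2 fold change of 1 in either direction for 148 members and reached it for 10, of which 7 were not called. Both IFNα samples lay above both controls for 42 members (26.6%, background 23.1%) and below them for 37 (23.4%, background 23.4%), and 79 members overlapped. The 42 include Slc1a4 and Slc9a7, which reached the level threshold only through the IFNα samples.

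The counts of calls changed most when a control sample was left out. Without control replicate 1, 12 members were called higher and 18 lower, which is 7.59% and 11.4% of members against 7.5% and 6.25% of all tested genes. Without control replicate 2 the counts were 44 and 30, which is 27.8% and 19% against 22.8% and 21.6%. In these fits the remaining control is assumed to vary as the IFNα samples do. Leaving out an IFNα replicate, whichever it was, kept the calls of Slco3a1 and Slc25a22 and lost that of Slc26a11.

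**Figure D2:**
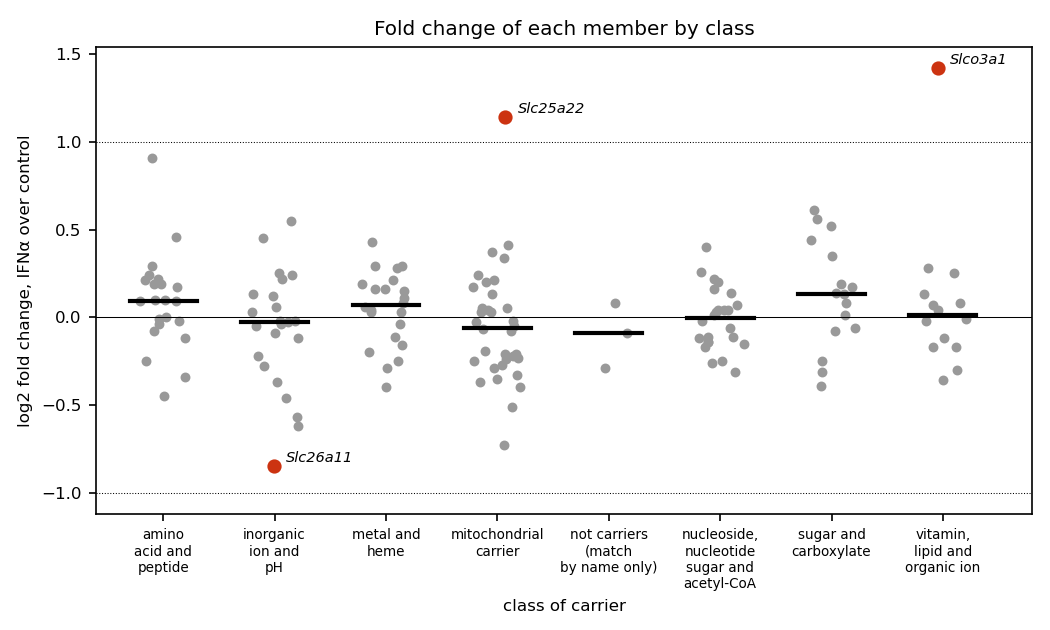
Log2 fold change of IFNα over control (vertical axis) for each of the 158 members, by class of carrier. Points are genes, black bars are class medians, red points are the 3 members called at an adjusted p under 0.05, and dotted lines mark a log2 fold change of 1 in either direction. The class medians lie between -0.09 and 0.14.

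Slco3a1 (ENSMUSG00000025790) encodes OATP-D, which in human carries prostaglandins and thyroid hormone. The gene lies on the minus strand at chr7:74275419-74554780. Its level was 52.5 and 70.8 CPM in the control samples and 167 and 163 CPM in the IFNα samples. Both IFNα samples stood far above both controls, and the controls differed more from each other than the IFNα samples did. The mean went from 61.6 ± 13 CPM (SD, n = 2) to 165 ± 3.29 CPM (SD, n = 2), a 2.68-fold increase. By edgeR the log2 fold change was 1.42 (SE 0.17, 95% interval 0.99 to 1.85, adjusted p = 0.0213). It was called under 17 of 17 other settings, with log2 fold changes of 1.22 to 1.66. These settings include the fits that leave a group with a single sample, and a block of crossed replicate pairs chosen after seeing the data. No other tested gene lay within 150 kb of Slco3a1.

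Slc25a22 (ENSMUSG00000019082) encodes a carrier that brings glutamate into the mitochondrial matrix together with a proton. The gene lies on the minus strand at chr7:141429744-141437892. Its level was 67.7 and 56.1 CPM in the controls and 139.9 and 133 CPM with IFNα. The groups were well apart, and here control replicate 1 was the higher control. The mean rose from 61.9 ± 8.2 CPM (SD, n = 2) to 137 ± 4.75 CPM (SD, n = 2), a 2.21-fold increase. By edgeR the log2 fold change was 1.14 (SE 0.14, 95% interval 0.79 to 1.50, adjusted p = 0.0232). It was also called under the same 17 of 17 other settings, with log2 fold changes of 1.01 to 1.29.

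Slc25a22 was the 1 called member with a promoter sequence in the RefSeq table used here (GRCm38.p6). The table gave 160 promoters for 121 of the 158 members, each running from 250 bases before to 50 bases after a transcription start. They were searched on both strands, each motif on its own so that matches could overlap. The motifs were the core of the interferon-stimulated response element (ISRE), which is GAAA, any 2 bases and GAAA again, the gamma-activated sequence (TTCNNNGAA), the ATF4 amino acid response element (TGATGNAAT) and the E-box bound by Myc (CACGTG). The ISRE core was found in 3 members. It lay 79 bases upstream of a start of Slc25a22 within the gene, 77 bases upstream for Slc25a15, the mitochondrial ornithine carrier, and 37 bases upstream for Slc37a1, of the sugar phosphate carrier family. The 3 windows are shown because the same motif, with different letters at its 2 free bases, stood before a gene that rose and before others with small fold changes. They are written along the gene's strand with the match in capitals, which for Slc25a15 is the core read on the opposite strand, and they come from chr7:141435435-141435464 (minus), chr8:22398679-22398708 (minus) and chr17:31296177-31296206 (plus).
Slc25a22: agcccaaaatGAAAGAGAAAgtcctccccc
Slc25a15: ggagagcagaTTTCCGTTTCcttggccagc
Slc37a1: acagggccggGAAAGTGAAAgggcggccgc
The log2 fold change with IFNα by edgeR was 1.14 for Slc25a22 (adjusted p = 0.0232), -0.21 for Slc25a15 (adjusted p = 0.62) and 0.13 for Slc37a1 (adjusted p = 0.698). Of the 3 members with a match, 1 was called. Slc25a22 also has other starts. The 250 bases before them, at chr7:141437875-141438124 and chr7:141434595-141434844, held no ISRE core on either strand.

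The 250 bases before that start of Slc25a22, at chr7:141435376-141435625 on the minus strand, are printed to show the bases around the match, again with the ISRE core in capitals.
Slc25a22 upstream: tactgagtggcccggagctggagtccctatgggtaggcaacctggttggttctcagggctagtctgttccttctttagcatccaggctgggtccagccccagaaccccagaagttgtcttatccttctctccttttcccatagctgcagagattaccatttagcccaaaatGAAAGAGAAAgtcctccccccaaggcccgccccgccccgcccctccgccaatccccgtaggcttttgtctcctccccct
The core was found in 2.48% of the members with a promoter, in 3.99% of 27025 genes and in 4.05% of 7576 protein-coding genes at 5 CPM or more. The gamma-activated sequence was found in 8 members, or 6.61%, against 8.34% of those protein-coding genes, and the ATF4 element in 0 members against 0.449%. The E-box was found in 23 members, or 19%, against 8.09% of all genes and 12.6% of those protein-coding genes. A match is a description of the letters and not evidence of binding.

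Slc26a11 (ENSMUSG00000039908) belongs to a family of sulfate and anion exchangers. The gene lies on the plus strand at chr11:119355557-119381079. Its level was 29.6 and 32.1 CPM in the controls and 17 and 17.2 CPM with IFNα. The samples of a group lay close together and the groups did not overlap. The mean fell from 30.9 ± 1.79 CPM (SD, n = 2) to 17.1 ± 0.0863 CPM (SD, n = 2), so the controls were 1.8-fold higher. By edgeR the log2 fold change was -0.85 (SE 0.13, 95% interval -1.18 to -0.52, adjusted p = 0.0488), just inside the threshold. It was called under 13 of 17 other settings, and the call was lost with a filter at a mean of 5 CPM, with limma-voom, without IFNα replicate 1 (adjusted p = 0.455 by edgeR) and without IFNα replicate 2 (adjusted p = 0.432). Its log2 fold change over the settings was -0.92 to -0.79. The 13 settings with a call include both fits without a control replicate and the block of crossed replicate pairs. The myeloid and B cell marker sums, led by Lyz2 and Cd79b, were also lower with IFNα, as given above. Their part in the difference of Slc26a11 was not tested.

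The genes around the called members were compared after the values were seen. Of 9 other tested genes within 150 kb of Slc26a11, Rnf213 and A930037H05Rik were called higher, and the other 7 were not called, with log2 fold changes of -0.88 (Ccdc40) to -0.08. Rnf213, a large ubiquitin ligase gene, lies 12 kb downstream of Slc26a11 on the same strand and stood at 147 and 364 CPM in the controls and 4796 and 4636 CPM with IFNα. By edgeR its log2 fold change was 4.21 (SE 0.47, adjusted p = 0.0148), the opposite direction to Slc26a11. A930037H05Rik stood at a log2 fold change of 2.95 (adjusted p = 0.0344 by edgeR). Sgsh, which encodes a lysosomal enzyme of heparan sulfate breakdown, adjoins Slc26a11 on the opposite strand and stood at 26.1 and 35.1 CPM in the controls and 21.1 and 19.4 CPM with IFNα. It lay lower in both IFNα samples without passing the test (log2 fold change -0.60, adjusted p = 0.301 by edgeR). Around Slc25a22 none of 13 other tested genes within 150 kb was called, and their log2 fold changes lay between -0.53 and 0.07. Pidd1, which lies 0.2 kb upstream of Slc25a22 on the same strand, stood at a log2 fold change of 0.05 (adjusted p = 0.875 by edgeR).

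**Figure D3:**
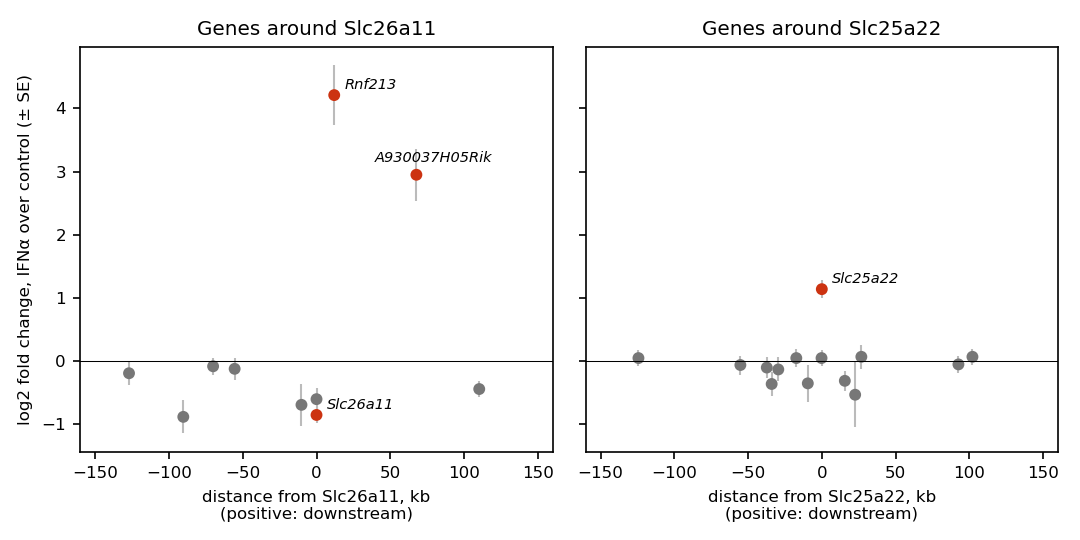
Log2 fold change of IFNα over control ± SE (vertical axis) for tested genes within 150 kb, against their distance in kilobases from Slc26a11 (left) and Slc25a22 (right), with downstream positive. Red points are called genes. Rnf213 at 4.21 stands above Slc26a11 at -0.85, while Slc25a22 at 1.14 is the only called gene of its panel.

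Outside the calls, some members stood at the ends of the fold change range without passing the test. At the upper end stood Slc1a4, the neutral amino acid exchanger ASCT1, at 2.37 and 4.61 CPM in the controls and 7.14 and 6.03 CPM with IFNα. By edgeR its log2 fold change was 0.91 (SE 0.35, adjusted p = 0.428), with a 95% interval of 0.05 to 1.78. The groups did not overlap, but the controls differed widely from each other. Slc45a4, of a proton-coupled sugar carrier family, stood at 19.1 and 19.8 CPM in the controls and 29.3 and 29.9 CPM with IFNα. Its samples lay close together within each group, and its log2 fold change was 0.61 (SE 0.13, adjusted p = 0.129 by edgeR). It was called under 5 of 17 other settings, which include both fits without a control replicate and the block of crossed replicate pairs. At the lower end Slc25a23, a calcium-regulated carrier of ATP-magnesium and phosphate in mitochondria, stood at 27.5 and 28.3 CPM in the controls and 17 and 16.6 CPM with IFNα. Its groups were well apart, and its log2 fold change was -0.73 (SE 0.13, adjusted p = 0.0763 by edgeR). Slc25a23 was called under 7 of 17 other settings, again with both fits without a control replicate and the crossed pairs among them.

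**Figure D4:**
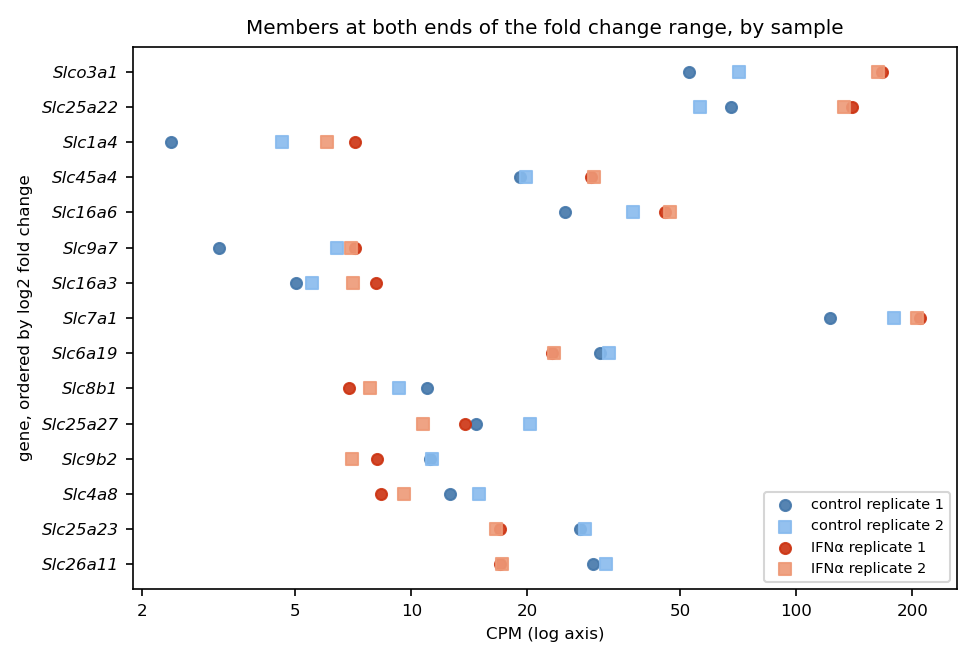
CPM (log axis) in each of the 4 samples for the called members and those with the largest and smallest fold changes among the others, ordered by log2 fold change. For Slco3a1, Slc25a22 and Slc26a11 the IFNα and control samples are well separated, while for Slc1a4 and Slc9a7 the controls lie far apart.

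Among the 22 amino acid and peptide carriers none was called by edgeR in either direction. At an unadjusted p under 0.05 by edgeR 1 was higher and 2 were lower, against 5.72% and 5.55% of all tested genes. The 1 higher was Slc1a4, which is a member only through its IFNα samples. The median log2 fold change was 0.10, and 8 members, Slc1a4 among them, were higher and 3 lower without overlap, against 23.1% and 23.4% of all tested genes. The class summed to 1846 and 2127 CPM in the controls and 2172 and 2154 CPM with IFNα. Control replicate 1 was below the other 3 samples, and the median of the log2 ratio between the controls, replicate 2 over 1, was 0.23. Slc3a2, the heavy chain of LAT1, stood at 134 and 119.5 CPM in the controls and 143 and 148 CPM with IFNα (log2 fold change 0.19, adjusted p = 0.6 by edgeR). Slc7a1, the arginine and lysine carrier CAT1, stood at 122 and 179.6 CPM in the controls and 209 and 206 CPM with IFNα (log2 fold change 0.46, SE 0.20, adjusted p = 0.481 by edgeR). In Slc7a1 control replicate 2 was much closer to the IFNα samples than control replicate 1 was.

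In some other members of the class control replicate 1 was again the lowest sample. Slc38a1, a glutamine carrier chosen after its values were seen like the other genes of this paragraph except Slc6a19, stood at 258 and 365 CPM in the controls and 367 and 367 CPM with IFNα. Its log2 fold change was 0.24 (adjusted p = 0.655 by edgeR), and it was 0.01 without control replicate 1, 0.51 without control replicate 2 and -0.08 with an offset for gene length. Slc38a2, which carries small neutral amino acids, stood at 188 and 250.3 CPM in the controls and 241 and 227 CPM with IFNα, with overlap. Slc6a6, the taurine carrier, stood at 128 and 189 CPM in the controls and 189.9 and 198 CPM with IFNα (log2 fold change 0.29, adjusted p = 0.615 by edgeR). In the other direction Slc6a19, a sodium-coupled neutral amino acid carrier, had the smallest p of the class, at 30.9 and 32.7 CPM in the controls and 23.2 and 23.5 CPM with IFNα (log2 fold change -0.45, SE 0.13, adjusted p = 0.267 by edgeR). Slc17a9, a vesicular nucleotide carrier placed here by its family number, stood at 80.7 and 72.3 CPM in the controls and 61.8 and 58.7 CPM with IFNα (log2 fold change -0.34, adjusted p = 0.405 by edgeR).

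Of the 16 sugar and carboxylate carriers none was called by edgeR. The median log2 fold change was 0.14, the highest of the classes. Without overlap 7 members were higher and 1 was lower, against 23.1% and 23.4% of all tested genes, and at an unadjusted p under 0.05 by edgeR 5 were higher and 0 lower, against 5.72% and 5.55%. No test of the class as a whole was made. The class summed to 556 and 574.3 CPM in the controls and 619 and 615.7 CPM with IFNα. Slc16a1 stood at 147 and 149.6 CPM in the controls and 167 CPM in both IFNα samples (log2 fold change 0.17, adjusted p = 0.612 by edgeR). Slc16a3, the lactate exporter MCT4, stood at 5.02 and 5.52 CPM in the controls and 8.08 and 7.07 CPM with IFNα (log2 fold change 0.52, SE 0.20, adjusted p = 0.428 by edgeR). Both lactate carriers lay higher in both IFNα samples, with small gaps. Slc16a6, of the same monocarboxylate family, stood at 25 and 37.7 CPM in the controls and 45.5 and 47.1 CPM with IFNα (log2 fold change 0.56, adjusted p = 0.423 by edgeR), and its exons overlap those of Amz2 on the opposite strand by 1052 bases, so that reads of these genes may not be told apart.

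Also in this class, and chosen after their values were seen, were Slc37a3 and Slc16a10. Slc37a3, of the sugar phosphate carrier family, stood at 35.5 and 34 CPM in the controls and 47.7 and 46.4 CPM with IFNα (log2 fold change 0.44, SE 0.12, adjusted p = 0.257 by edgeR). Slc16a10, a carrier of aromatic amino acids placed here by its family number, stood at 20.2 and 21.7 CPM in the controls and 25.3 and 28.1 CPM with IFNα (log2 fold change 0.35, adjusted p = 0.436 by edgeR). Neither group pair overlapped. The glucose carrier Slc2a3, also chosen after its values were seen, stood at 58.6 and 68.4 CPM in the controls and 60.7 and 61.2 CPM with IFNα, with both IFNα samples between the controls. In the other direction from these, Slc50a1 stood at 78.1 and 59.6 CPM in the controls and 50.9 and 53.9 CPM with IFNα (log2 fold change -0.39, adjusted p = 0.463 by edgeR).

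The 34 mitochondrial carriers of the Slc25 family held 1 called member, Slc25a22. Their median log2 fold change was -0.06, and 7 were higher and 12 lower without overlap, against 23.1% and 23.4% of all tested genes. The class summed to 3080.5 and 2646 CPM in the controls and 2561 and 2720.1 CPM with IFNα, so IFNα replicate 2 lay between the controls. Much of that sum came from Slc25a5 at 964 and 739 CPM in the controls and 673 and 761 CPM with IFNα (log2 fold change -0.25, adjusted p = 0.639 by edgeR). Slc25a3 stood at 689.6 and 581 CPM in the controls and 511 and 546 CPM with IFNα (log2 fold change -0.27, adjusted p = 0.581 by edgeR). Slc25a5 overlapped between the groups, while Slc25a3 lay below both controls in both IFNα samples without passing the test. Slc25a27, also called UCP4, stood at 14.7 and 20.3 CPM in the controls and 13.8 and 10.7 CPM with IFNα (log2 fold change -0.51, SE 0.23, adjusted p = 0.486 by edgeR).

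Some further mitochondrial carriers were chosen after their values were seen. Slc25a44, a carrier of branched-chain amino acids, stood at 29.4 and 30.5 CPM in the controls and 40.4 and 39 CPM with IFNα (log2 fold change 0.41, SE 0.13, adjusted p = 0.301 by edgeR). Slc25a36, which carries pyrimidine nucleotides, stood at 52.2 and 70.7 CPM in the controls and 82.6 and 76.3 CPM with IFNα (log2 fold change 0.37, adjusted p = 0.514 by edgeR). Both lay above both controls without passing the test. Slc25a42, the coenzyme A carrier, stood at 25.4 and 28.8 CPM in the controls and 20.3 and 20.8 CPM with IFNα (log2 fold change -0.40, adjusted p = 0.368 by edgeR). Slc25a20, which imports acylcarnitines for fatty acid oxidation, stood at 33.8 and 27.7 CPM in the controls and 23.2 and 24.5 CPM with IFNα (log2 fold change -0.37, adjusted p = 0.458 by edgeR). The last pair lay below both controls, also without passing the test.

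None of the 24 carriers of nucleosides, nucleotide sugars and acetyl-CoA was called by edgeR. At an unadjusted p under 0.05 by edgeR 0 were higher and 0 lower, against 5.72% and 5.55% of all tested genes. The log2 fold changes of the class ran from -0.31 to 0.40 with a median of -0.01, the narrowest range of the classes of carriers. The class summed to 1174 and 1209.9 CPM in the controls and 1159.6 and 1169 CPM with IFNα. At the lower end Slc28a2 stood at 166 and 186 CPM in the controls and 145 and 139 CPM with IFNα (log2 fold change -0.31, SE 0.13, adjusted p = 0.448 by edgeR). At the upper end Slc29a2, an equilibrative nucleoside carrier chosen after its values were seen, stood at 8.31 and 9.22 CPM in the controls and 11.9 and 11.2 CPM with IFNα (log2 fold change 0.40, adjusted p = 0.457 by edgeR). Neither overlapped, and they lay in opposite directions. Slc35a4 stood at 128 and 132 CPM in the controls and 137 and 129.8 CPM with IFNα, with overlap.

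None of the 22 carriers of metals and heme was called by edgeR, with a median log2 fold change of 0.07 and a range of -0.40 to 0.43. At an unadjusted p under 0.05 by edgeR 0 were higher and 1 was lower, against 5.72% and 5.55% of all tested genes. Without overlap 8 were higher and 5 lower, against 23.1% and 23.4%. Summed levels were 690.3 and 745.3 CPM in the controls and 757.8 and 744.1 CPM with IFNα. Slc48a1, which moves heme out of endosomes and lysosomes, had the smallest p, at 44.1 and 38.5 CPM in the controls and 31.5 and 31.2 CPM with IFNα (log2 fold change -0.40, SE 0.14, adjusted p = 0.358 by edgeR). Among zinc importers, chosen after their values were seen, Slc39a10 stood at 22.8 and 31.8 CPM in the controls and 38.7 and 34.9 CPM with IFNα (log2 fold change 0.43, adjusted p = 0.491 by edgeR). Slc39a6, a close relative of it, stood at 34.4 and 37 CPM in the controls and 44.7 and 43 CPM with IFNα (log2 fold change 0.29, adjusted p = 0.466 by edgeR). Both lay above both controls without passing the test, as did Slc39a7 of the same family. In the other direction Slc39a1, Slc39a3 and Slc39a8, also so chosen, lay below both controls without passing it. Their log2 fold changes were -0.16, -0.25 and -0.29. The magnesium carrier Slc41a1, also chosen after its values were seen, stood at 32.8 and 39.1 CPM in the controls and 44.9 and 42.4 CPM with IFNα (log2 fold change 0.28, adjusted p = 0.54 by edgeR).

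The 23 inorganic ion and pH carriers held Slc26a11, the 1 member called lower, against 0.222% of all tested genes. They ranged from -0.85 to 0.55 in log2 fold change, with a median of -0.03. Without overlap 5 members, Slc9a7 among them, were higher and 6 lower, against 23.1% and 23.4% of all tested genes. At an unadjusted p under 0.05 by edgeR 1 was higher and 3 were lower, against 5.72% and 5.55%. Slc9b2, a sodium-proton exchanger, stood at 11.2 and 11.3 CPM in the controls and 8.15 and 7.02 CPM with IFNα (log2 fold change -0.57, SE 0.17, adjusted p = 0.299 by edgeR). Slc4a8, a sodium-driven chloride-bicarbonate exchanger, stood at 12.6 and 15 CPM in the controls and 8.33 and 9.57 CPM with IFNα (log2 fold change -0.62, SE 0.18, adjusted p = 0.272 by edgeR). Slc8b1, the mitochondrial sodium-calcium exchanger, stood at 11 and 9.27 CPM in the controls and 6.89 and 7.83 CPM with IFNα (log2 fold change -0.46, SE 0.19, adjusted p = 0.451 by edgeR). These genes lay below both controls, and none passed the test. Slc9a7, a sodium-proton exchanger of the Golgi, stood at 3.17 and 6.43 CPM in the controls and 7.14 and 6.96 CPM with IFNα (log2 fold change 0.55, SE 0.35, adjusted p = 0.596 by edgeR). Slc14a1, a urea channel placed here by its family number and chosen after its values were seen, stood at 31.2 and 33.5 CPM in the controls and 44 and 44.4 CPM with IFNα (log2 fold change 0.45, SE 0.13, adjusted p = 0.252 by edgeR). The phosphate carrier Slc20a1 stood at 161 and 172 CPM in the controls and 188 and 175 CPM with IFNα, with a small gap between the groups (log2 fold change 0.12, adjusted p = 0.716 by edgeR).

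Apart from Slco3a1, the 14 carriers of vitamins, lipids and organic ions held no call. With it included, 2 of them (Slco3a1 and Slc10a7) were higher and 4 lower without overlap, against 23.1% and 23.4% of all tested genes. The class summed to 655.8 and 722.4 CPM in the controls and 800.7 and 772.2 CPM with IFNα. Without Slco3a1 the sums were 603.3 and 651.6 CPM in the controls and 633.3 and 609.4 CPM with IFNα, and the groups overlapped. Slc44a2, a choline carrier chosen after its values were seen, stood at 266 and 273 CPM in the controls and 277 and 257 CPM with IFNα, with overlap. The reduced folate carrier Slc19a1, chosen in the same way, stood at 103 and 106 CPM in the controls and 90.2 and 95.8 CPM with IFNα (log2 fold change -0.17, adjusted p = 0.619 by edgeR). The fatty acid transport protein Slc27a4, again so chosen, stood at 17.4 and 17.8 CPM in the controls and 12.9 and 14.4 CPM with IFNα (log2 fold change -0.36, adjusted p = 0.447 by edgeR). Of the 3 genes that are not carriers, Slc9a3r1 stood at 192 and 162 CPM in the controls and 141 and 148 CPM with IFNα (log2 fold change -0.29, adjusted p = 0.509 by edgeR).

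The differences between the control samples followed gene length among the members. Across the 158 genes, which share the same 4 libraries and are not independent replicates, gene length and the log2 ratio between the controls (replicate 2 over replicate 1) had Pearson's r of 0.58 and Spearman's rho of 0.59. Gene length and the ratio between the IFNα samples had r of -0.14. For the 53 shortest members, of 1466 to 3995 bases, the median log2 ratio of the controls was -0.16, and for the 53 longest, of 5835 to 17236 bases, it was 0.27. The medians between the IFNα samples were 0.01 and -0.04. The median log2 fold changes with IFNα were -0.04 in the shortest and 0.08 in the longest members. The classes differ in length, with medians of 4471 bases for the mitochondrial and 5671 bases for the amino acid carriers, and their median log2 ratios between the controls were -0.13 and 0.23. The part of gene length in the class medians was not tested.

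**Figure D5:**
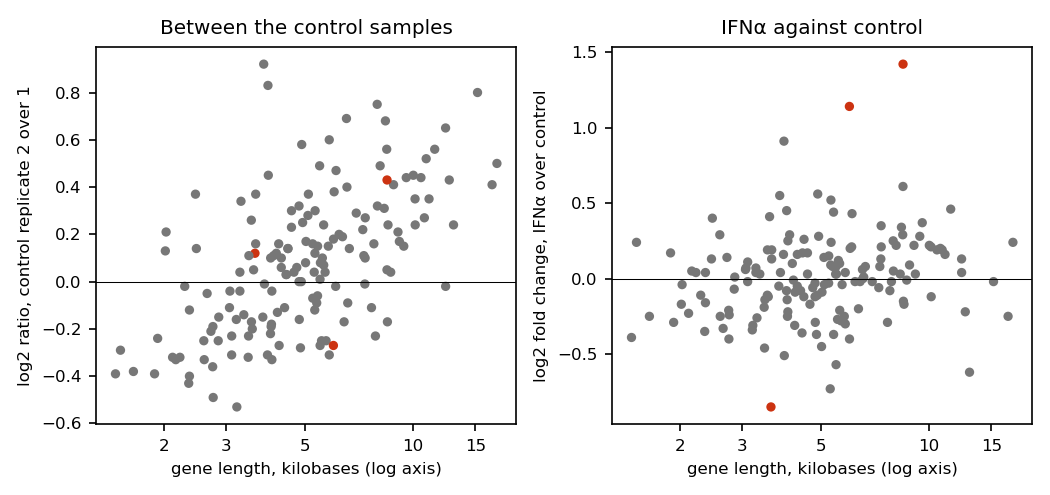
Gene length in kilobases (log axis) against the log2 ratio of control replicate 2 over 1 (left) and the log2 fold change of IFNα over control (right) for the 158 members. Points are genes and the 3 called members are red. The left panel climbs with length (r of 0.58), and in the right panel r was 0.2.

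Carriers, pumps and some other genes with names outside the Slc system were compared with the members. The list held 64 genes, among them pyruvate carriers, sideroflexins, chloride channels, ion pumps, ABC transporters, Mfsd and Lrrc8 genes and the receptor gene Tfrc. Of these, 62 were tested, 1 was higher, 0 were lower and 61 were not called by edgeR, with a median log2 fold change of 0.09. Over all tested genes 1.43% were called higher and 0.222% lower. At an unadjusted p under 0.05 there were 7 higher and 2 lower in edgeR's test, against 5.72% and 5.55% of all tested genes. The gene called was Abcb1a, which encodes a form of the multidrug efflux pump P-glycoprotein, at 23.3 and 25.8 CPM in the controls and 69.8 and 69.4 CPM with IFNα. Its groups were far apart, with a log2 fold change of 1.51 (SE 0.13, adjusted p = 0.00485 by edgeR). Abcb1b, which encodes another form, stood at 62 and 73.7 CPM in the controls and 79.6 and 75.7 CPM with IFNα. It was not called (log2 fold change 0.20, adjusted p = 0.623 by edgeR).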

How the data were processed

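RNA of 4 samples was sequenced. The authors prepared NEBNext libraries for an Illumina HiSeq, aligned reads with Hisat2 and deposited unnormalized read counts per gene, and the submitters' processing notes name HISAT2, Subread, featureCounts and mm9. How the counting treated strand is not given in the sources read, and 22 members have exons that overlap those of other tested genes. Of the members, 150 have the same coordinates in the GENCODE M21 annotation of GRCm38, so positions are given on GRCm38. The single-sample files matched the joint table, with 0 differing counts. Totals of 16096121 to 17676062 counts per sample limit the precision for low genes, and only 2 samples per group limit the tests.

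The deposited counts were fitted in R 4.3.3 with edgeR 4.0.16 (filterByExpr at a minimum of 10 counts and a total of 15, TMM, robust glmQLFit, condition as the only term) on 14417 genes with 2 residual degrees of freedom, and p-values were adjusted by Benjamini-Hochberg over all of them. The scripts were tested on simulated data. Printed CPM were scaled by TMM, while the membership level used plain totals. SEs are the fold change over the root of the F statistic. Named are called members, the 6 largest and 6 smallest fold changes among the others, the 12 highest levels per kilobase, the smallest p of each class, Slc3a2 and the genes beside the threshold, and members outside that rule are said to be chosen after their values were seen. Members, classes, marker lists and the list of other carriers were chosen with earlier results of these data known. Alternatives were other scalings and filters, other tests (edgeR without the robust prior, its exact test and its likelihood ratio test, DESeq2 1.42.0, limma 3.58.1 with voom), a replicate block, an offset for gene length, membership at a mean CPM of 10 or 2, and leaving out each sample. Ratios between samples of a group used a pseudocount of 0.5 CPM. The 2 genes left out of the rule by name were not analysed here.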

Additional observations from a re-analysis of the deposited data

How the results depend on the processing

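The calls of Slco3a1 and Slc25a22 were kept under all 17 alternatives, and membership at a mean CPM of 10 or 2 gave the same counts of calls. Members called lower were 2 with no filter on low counts, with edgeR's exact test, with its likelihood ratio test and with the gene length offset, and 0 with a filter at a mean CPM of 5 and with limma-voom, against 1 in the fit as reported. Over all tested genes, 206 were called higher and 32 lower, and these became 356 and 138 with no filter, 424 and 224 with the exact test, 430 and 233 with the likelihood ratio test, 345 and 87 with DESeq2, and 358 and 102 with the gene length offset. Leaving out each sample in turn gave 2 to 44 members higher, 2 to 4 with a log2 fold change above 1, 0 to 30 members lower, 216 to 3446 of all genes higher and 23 to 3257 lower, with the largest counts without control replicate 2, where the spread comes from the IFNα samples alone. Slc38a1 had a log2 fold change of -0.08 with the gene length offset, against 0.24, and the cause was not tested. The replicate numbers share only a number. Across 10102 genes the difference between replicates 1 and 2 in the controls had r = -0.307 with that in the IFNα samples, and with a replicate block 2 members were higher and 1 lower, and of all genes 274 were higher and 57 lower. A block of crossed pairs, chosen after seeing the data, gave 5 members higher, 3 lower, 743 of all genes higher and 340 lower. Among single genes and alternatives, 61 tests came to pass the threshold, 4 no longer did, 1 changed direction and 580 stayed on their side.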
